A study of Mus musculus with 8 samples.

Results

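The oncofetal and imprinted genes studied here are 10 genes, chosen by symbol among the 23403 genes of the count table: Afp, Gpc3, Igf2bp1, Igf2bp3, Igf2, H19, Igf2r, Dlk1, Meg3 and Cdkn1c. Their RNA was measured in Hepa-1c1c7 (Hepa-1), a mouse hepatoma line grown in culture. RNA-seq covered 2 libraries of cells given 25 µM hexavalent chromium (Cr(VI), as CrK2O4) for 90 minutes, and 2 libraries labelled control with no named regimen. FAIRE-seq, which recovers DNA depleted of nucleosomes, covered 1 library each of cells given 25 µM Cr(VI) for 90 minutes, of cells passaged 20 times with 0.5 µM Cr(VI) in the medium, and of a control for each. All libraries share this 1 line, with no transgene or deletion named, and the labels do not say whether libraries of a group came from separate cultures. P-values therefore measure the spread between these libraries, which may be technical. RNA-seq after the long-term regimen was not analysed here.

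Oncofetal genes are active in fetal liver, are silenced or strongly reduced after birth, and are often expressed again in liver tumors. Afp is the classic example, and its protein is used as a blood marker of hepatocellular carcinoma. Imprinted genes are expressed mainly from the maternal or the paternal copy, and several of them act on fetal growth through the growth factor Igf2. Igf2 and Dlk1 are paternally expressed, H19, Meg3, Cdkn1c and, in mouse, Igf2r are maternally expressed, and most of these lie in clusters whose expression depends on DNA methylation at a shared control region.

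The RNA of these genes split into clear levels in control cells. On a per-length scale (RPKM, counts scaled by RefSeq exon length in kilobases and by library size), Afp had the highest control mean at 71.8 RPKM, above 91.3% of the 13619 genes tested. Gpc3 followed at 49.0 RPKM, Igf2bp3 at 20.0 RPKM and Igf2bp1 at 6.97 RPKM. The imprinted Igf2 and Igf2r were low, at 1.34 and 0.747 RPKM, above 21.1% and 16.4% of tested genes. H19, Meg3, Dlk1 and Cdkn1c were at or near 0. In the order of control levels, the ranges of neighbours did not overlap between the 2 control libraries for any pair of the 6 genes that passed the count filter.

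After 25 µM Cr(VI) the order changed at the top: Gpc3 stood at 133.1 RPKM and Afp at 73.5 RPKM. Igf2bp3 stood at 9.23 RPKM, Igf2bp1 at 6.54 RPKM, Igf2 at 1.58 RPKM and Igf2r at 0.846 RPKM. The 2 treated libraries did not overlap for Gpc3 against Afp, whereas for Igf2bp3 and Igf2bp1 they did: Igf2bp3 was at 11.3 and 7.14 RPKM and Igf2bp1 at 7.84 and 5.24 RPKM.

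Library totals ranged from 32319676 to 37696116 counts. The treated libraries differed from each other far more than the controls did: the median absolute difference was 0.339 between treated and 0.0551 between control libraries on a scale of log2(CPM + 0.5), where CPM are counts scaled to a common library size, and 874 against 4 genes differed by more than 2-fold. With edgeR's quasi-likelihood test and Benjamini-Hochberg adjustment over all 13619 genes at 0.05, 4.63% were called, 1.78% higher and 2.85% lower in treated cells. DESeq2 called 15.2% of the same genes. Both treated libraries lay above both controls for 32.2% of tested genes and below both for 34.1%. In control cells the keratins Krt8 and Krt18, transferrin and albumin were high, but the hepatocyte markers Ttr, Hnf4a and Apoa1 were under 1 CPM. The summed level of the 9 hepatocyte markers was 7320 and 8549 CPM in treated libraries and 4073 and 4209 CPM in controls. Albumin gave 3666 and 3547 against 904.4 and 947.2 CPM of this. Krt8, Krt18 and transferrin had log2 fold changes of 0.28, 0.28 and 0.67, and edgeR called none of them. All 4 endothelial markers were under 1 CPM in control libraries with Cdh5 at 0. Their sum was 1.92 and 2.38 CPM in treated libraries and 0.633 and 0.690 CPM in controls. Of this sum, Pecam1 gave 1.77 and 2.24 against 0.489 and 0.486 CPM (edgeR, adjusted p = 0.0438), and Kdr overlapped with the controls. Sums were 339 and 428 against 275 and 279 CPM for 6 fibroblast or stellate markers, 111 and 104 against 114 and 117 CPM for 5 macrophage or leukocyte markers, and 800 and 1044 against 966 and 999 CPM for 4 cholangiocyte markers. Of the macrophage or leukocyte markers, Cd68 was at 5.08 and 22.0 against 7.76 and 8.28 CPM. Csf1r lay below both controls and Cd14 overlapped with them. Whether other cells had a part in any result was not tested. In such bulk samples, a change in the number of cells that express a gene and a change in its RNA per cell cannot be told apart.

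Of the 10 genes, 8 had at least 1 count in some library and 6 passed the filter on low counts. Of these 6, edgeR called 1, Gpc3, and DESeq2 called 2, Gpc3 and Igf2bp3. Unadjusted p was under 0.05 for the same pair of genes by edgeR. Over all tested genes 30.7% had an unadjusted p under 0.05, so that 2 of 6 was near the background. Without control replicate 1 or control replicate 2, Gpc3 kept a log2 fold change of 1.42 (edgeR), but its call was lost. With a treated library left out the spread came from the controls alone and most tested genes were called, 77.6% without treated replicate 1 and 67.2% without treated replicate 2. Of the 6 genes, those fits called 5, all but Igf2r, and 4, all but Igf2 and Igf2r, which shows nothing particular to them. Both treated libraries lay above both controls for 3 genes, below both for 1, and overlapped with them for 2. Over all tested genes 32.2% lay above both and 34.1% below both. The median log2 fold change of the 6 was 0.11, beside -0.0047 for all tested genes.

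**Figure D1:**
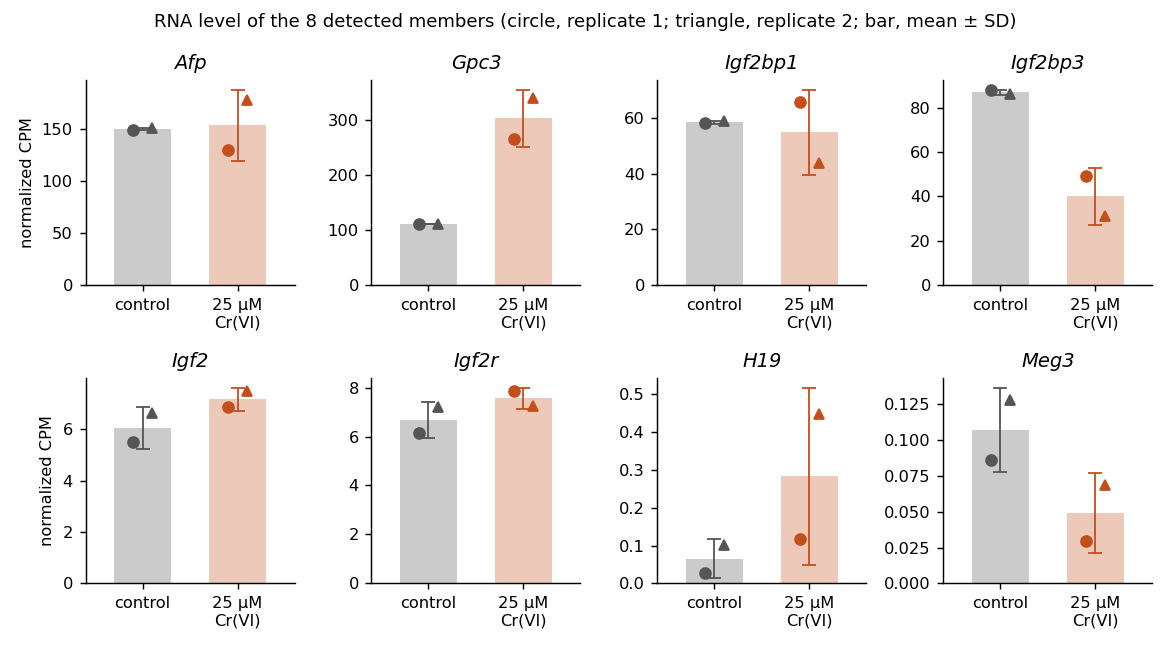
RNA levels in normalized CPM (vertical axis from 0, a separate scale for each gene) of the 8 genes with counts, in control and 25 µM Cr(VI) libraries. Circles and triangles are replicates 1 and 2, and bars with error bars are means ± SD of 2 libraries. Gpc3 lay at 265.0 and 339.1 CPM in treated against 111.3 and 111.2 CPM in control libraries, and Igf2bp3 at 49.2 and 31.0 against 87.8 and 86.0 CPM.

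Gpc3 rose. It encodes glypican-3, a heparan sulfate proteoglycan anchored to the cell surface that is abundant in fetal liver and in hepatocellular carcinoma and is nearly absent from adult hepatocytes. The gene lies on chromosome X (GRCm38, chrX:52272426-52613974, minus strand). Its counts were 8969 and 9827 in the treated libraries and 3872 and 4347 in the controls. After normalization (TMM) these were 265.0 and 339.1 CPM against 111.3 and 111.2 CPM. Both treated libraries lay far above both controls, which were almost equal. The treated mean was 302.0 ± 52.4 CPM and the control mean 111.2 ± 0.135 CPM (SD, n = 2 each), a ratio of 2.72. The log2 fold change was 1.44 with a standard error of 0.16 (edgeR, adjusted p = 0.0327). Over all alternatives the log2 fold change stayed between 1.25 and 1.62. The call was lost when either control library was left out: without control replicate 1 the adjusted p was 0.0790, and without control replicate 2 it was 0.0808, both with a log2 fold change of 1.42 (edgeR).

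Afp did not pass the test. It encodes alpha-fetoprotein, the main plasma protein of the fetus and a product of the same ancestral gene as albumin (GRCm38, chr5:90490714-90508907, plus strand). Its counts were 4376 and 5144 in treated against 5185 and 5889 in control libraries. On the normalized scale it was 129.3 and 177.5 CPM against 149.1 and 150.6 CPM, so that 1 treated library lay below both controls and the other above both. The means were 153.4 ± 34.1 and 149.8 ± 1.05 CPM (SD, n = 2 each). The log2 fold change was 0.034 with a standard error of 0.18 (edgeR, adjusted p = 0.918). The sign depended on the treated library: it was 0.25 without treated replicate 1, -0.21 without treated replicate 2, and -0.094 when libraries were scaled by their size only. That last scaling moved the median of all tested genes to -0.11.

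The Igf2bp genes encode RNA-binding proteins that are abundant in the embryo, bind Igf2 and many other mRNAs, and return in many tumors. Igf2bp3 (GRCm38, chr6:49085218-49215469, minus strand) had 1666 and 899 counts in treated and 3054 and 3365 in control libraries. It stood at 49.2 and 31.0 CPM against 87.8 and 86.0 CPM, with both treated libraries below both controls but far from each other. The means were 40.1 ± 12.9 and 86.9 ± 1.26 CPM (SD, n = 2 each). The log2 fold change was -1.11 with a standard error of 0.25, which missed the threshold by edgeR (adjusted p = 0.0772). DESeq2 gave -1.10 with an adjusted p of 9.5e-04, and the fold change stayed between -1.48 and -0.82 over all alternatives.

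Igf2bp1 (GRCm38, chr11:95957163-96005944, minus strand) had 2224 and 1272 counts in treated and 2022 and 2298 in control libraries. On the normalized scale it was 65.7 and 43.9 CPM against 58.1 and 58.8 CPM, with 1 treated library on each side of the controls. Its log2 fold change was -0.092 with a standard error of 0.22 (edgeR, adjusted p = 0.801). It was -0.40 without treated replicate 1 and 0.17 without treated replicate 2. Igf2bp2, the third gene of the family and the form retained in adult tissues, was near the limit of detection with 9 and 6 counts in treated and 19 and 31 in control libraries. Its log2 fold change was -1.48 with a standard error of 0.40 (edgeR, adjusted p = 0.103).

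**Figure D2:**
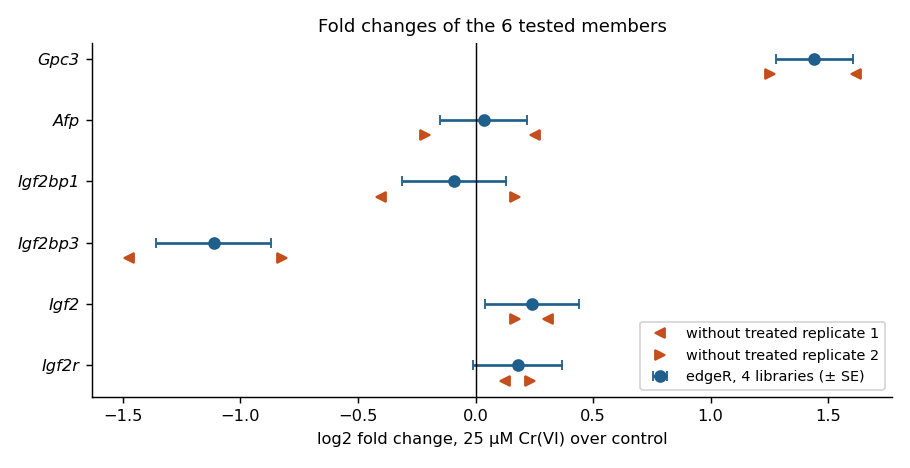
Log2 fold change of 25 µM Cr(VI) over control (horizontal axis) for the 6 tested genes. Blue points with bars are edgeR estimates ± SE from 4 libraries, and triangles are estimates with 1 treated library left out. Gpc3 at 1.44 and Igf2bp3 at -1.11 kept their side of 0 in both, and Afp and Igf2bp1 changed side.

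The imprinted ligand and its receptor were low in every library. Igf2 is a fetal growth factor, and Igf2r carries Igf2 to the lysosome for breakdown and also sorts lysosomal enzymes. Igf2 (GRCm38, chr7:142650768-142666816, minus strand) had 232 and 217 counts in treated and 191 and 260 in control libraries. That was 6.85 and 7.49 CPM against 5.49 and 6.65 CPM, with both treated libraries above both controls by little. Its log2 fold change was 0.24 with a standard error of 0.20 (edgeR, adjusted p = 0.458). Igf2r (GRCm38, chr17:12682406-12769706, minus strand) had 266 and 210 counts in treated and 214 and 281 in control libraries. At 7.86 and 7.25 CPM against 6.15 and 7.19 CPM, its treated libraries also lay above the controls, the nearest pair almost touching. The log2 fold change was 0.18 with a standard error of 0.19 (edgeR, adjusted p = 0.552).

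The other imprinted genes gave too few counts to pass the filter. H19 is a long noncoding RNA that shares its control region with Igf2, 72.6 kb away on chromosome 7, and in adult liver tumors it often returns. It had 4 and 13 counts in treated and 1 and 4 in control libraries (GRCm38, chr7:142575530-142578146). Meg3, the noncoding RNA of the Dlk1 cluster on chromosome 12, had 1 and 2 counts in treated and 3 and 5 in control libraries (GRCm38, chr12:109540996-109571729). With no filter, the adjusted p was 0.293 for H19 and 0.529 for Meg3 (edgeR). H19 entered 3 fits with 1 library left out and was called in that without treated replicate 1 (log2 fold change 2.68, edgeR adjusted p = 0.00124), on 13 counts against 1 and 4 and with 77.6% of all genes called. Dlk1, a membrane protein of hepatoblasts related to Notch ligands (chr12:109452485-109463336), had 0 counts in all 4 libraries. Cdkn1c, the cyclin-dependent kinase inhibitor p57 (chr7:143458339-143461059), likewise had 0 counts in all 4. A count of 0 allows up to 3 counts, or 0.0767 to 0.104 CPM depending on the library, from counting error alone.

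Antisense transcripts bear on these values because the sources used here do not say whether reads were counted by strand. Igf2os, antisense to Igf2, shares 98 bases of exon with it, or 2.16% of the exon length of Igf2. Rtl1 shares 4091 bases, or 31.6%, of the exons of Meg3. Airn, the noncoding RNA transcribed against Igf2r, shares no exon base with Igf2r, and Malsu1 shares none with Igf2bp3. The small RNA genes Mir675 in H19 and Mir3063 in Igf2bp1 lie within exons, over 84 and 92 bases. Mir770 and Mir1906-1 share 94 and 80 bases with the exons of Meg3.

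Ratios of counts within a library do not depend on the scaling between libraries. The ratio of Gpc3 to Afp was 2.05 and 1.91 in treated against 0.747 and 0.738 in control libraries. Although Afp itself differed between the treated libraries, this ratio was close in both. The ratio of Igf2bp3 to Igf2bp1 was 0.749 and 0.707 in treated against 1.51 and 1.46 in control libraries. Both genes were lower in treated replicate 2 than in treated replicate 1. The order of the pair was turned in both treated libraries for raw counts only. Per exon length, Igf2bp3 stayed above Igf2bp1 in each, at 11.3 against 7.84 RPKM in treated replicate 1 and 7.14 against 5.24 RPKM in treated replicate 2. The ratio of Igf2 to Igf2r was 0.872 and 1.03 against 0.893 and 0.925, where the groups overlapped. With 2 against 2 libraries, an exact two-sided permutation test cannot go below p = 0.333, so these ratios are descriptions.

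**Figure D3:**
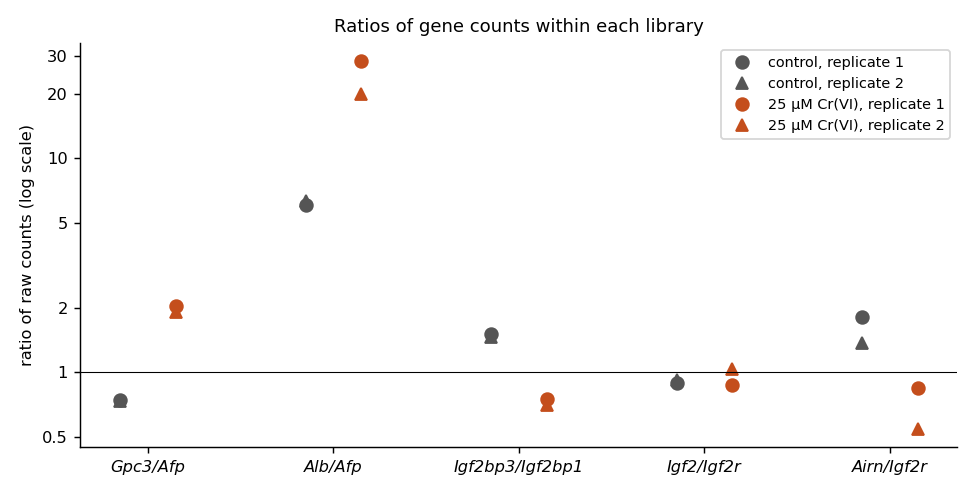
Ratios of raw counts of gene pairs within each library (vertical axis, log scale), grey for control and orange for 25 µM Cr(VI), circles and triangles for replicates 1 and 2. Gpc3/Afp was 2.05 and 1.91 in treated against 0.747 and 0.738 in control libraries, and Igf2/Igf2r overlapped between the groups.

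Of the neighbours of Afp in the albumin gene family, Alb alone had enough counts for a test. Albumin (Alb) lies 14.1 kb upstream of Afp, is transcribed in the same direction, and takes over from Afp after birth as the main plasma protein. Alb was at 3666 and 3547 CPM in treated libraries and 904.4 and 947.2 CPM in controls. It rose, with a log2 fold change of 1.96 and a standard error of 0.20 (edgeR, adjusted p = 0.0317). The ratio of Alb to Afp counts was 28.3 and 20.0 in treated against 6.07 and 6.29 in control libraries. The call for Alb was lost without control replicate 1 (adjusted p = 0.243) or control replicate 2 (adjusted p = 0.214, edgeR). The other genes of the albumin family nearly lacked reads: Afm had 1 and 4 counts in treated and 1 and 0 in control libraries, and Gc had 5 and 1 against 2 and 0.

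Around these genes, 7 lists of related genes were described by counts, with 105 of 162 distinct genes tested, 8 called by edgeR and 31 by DESeq2. Over all tested genes edgeR called 4.63% and DESeq2 15.2%, and every count of calls in the lists below stands beside these shares. All 8, like Gpc3, lost their call when either control library was left out. The list of Afp neighbours and Afp regulators had 10 of 15 genes tested, and only Alb was called by edgeR. Its median log2 fold change was 0.21. DESeq2 called 1 higher, Alb, and 1 lower, Foxa1, named here after its values were seen. Foxa1 had a log2 fold change of -0.72 (DESeq2, adjusted p = 0.0472). In the list of hepatocyte identity genes, 11 of 17 were tested, with a list median of 0.67. By edgeR 2 rose, Alb and the thyroid hormone carrier transthyretin (Ttr). DESeq2 called 5 higher and 1 lower, again Foxa1. Ttr went to 1.80 and 1.97 CPM from 0.345 and 0.332 CPM, a low level throughout (log2 fold change 2.46, edgeR adjusted p = 0.0332). Its adjusted p was 0.216 and 0.226 without control replicate 1 and 2.

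For the insulin-like growth factor axis, 15 of 18 genes were tested, 1 rose and the median was 0.53. That gene was Igf1, the growth factor that takes the place of Igf2 in postnatal liver. Igf1 was at 15.4 and 14.1 CPM in treated libraries and 6.53 and 6.65 CPM in controls (log2 fold change 1.16, standard error 0.16, edgeR adjusted p = 0.0419). Its adjusted p was 0.384 and 0.359 without control replicate 1 and 2, and 0.0759 with library size only. The ratio of Igf2 to Igf1 counts was 0.444 and 0.531 in treated against 0.841 and 1.0 in control libraries. The type 1 receptor gene Igf1r, named here after its values were seen, was under 1 CPM in every library.

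Among 53 other imprinted genes, 23 were tested, 1 rose and the median was 0.29. By edgeR 4.35% of the list was called, near the 4.63% of all tested genes. DESeq2 called 3 higher and 3 lower. Dcn encodes decorin, a matrix proteoglycan imprinted in mouse placenta. It was at 958.9 and 997.2 CPM in treated libraries and 435.7 and 442.5 CPM in controls (log2 fold change 1.16, standard error 0.14, edgeR adjusted p = 0.0362). Its adjusted p was 0.440 and 0.416 without control replicate 1 and 2. The fibroblast marker sum given above was also higher in treated libraries. In that sum, Col1a1 was at 234.2 and 363.9 against 203.2 and 206.9 CPM. Pdgfrb was at 80.4 and 41.6 against 46.7 and 47.6 CPM, above the controls in treated replicate 1 only. Acta2 was at 11.4 and 11.2 against 8.94 and 8.41 CPM. Col1a2 was also above both controls, but on 5 and 2 counts against 1 and 0. Pdgfra was below both controls and Col3a1 overlapped with them. Their part in the value of Dcn was not tested. Airn, named here after its values were seen, silences Igf2r on the paternal copy. It was at 6.68 and 3.97 CPM in treated libraries and 11.2 and 9.90 CPM in controls, with a log2 fold change of -0.98 (edgeR, adjusted p = 0.126; DESeq2, 0.0428). The ratio of Airn to Igf2r counts was 0.850 and 0.548 in treated against 1.82 and 1.38 in control libraries.

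None of 17 tested genes of 20 for imprint upkeep and DNA methylation was called by edgeR. The unadjusted p was under 0.05 for 7 of them, beside 30.7% of all tested genes, and DESeq2 called 2, both named here for that reason. Dnmt1, the maintenance DNA methyltransferase, was at 213.0 and 227.5 CPM in treated libraries and 338.1 and 337.6 CPM in controls (edgeR, adjusted p = 0.0623; DESeq2, 0.0194). Dnmt3b, a de novo DNA methyltransferase, was at 10.6 and 9.04 CPM against 4.69 and 5.11 CPM (edgeR, adjusted p = 0.0620; DESeq2, 0.0107).

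Of 32 markers of fetal liver, progenitors and hepatoma, 22 were tested, 3 fell and none rose by edgeR, with a median log2 fold change of -0.21. DESeq2 called 3 higher and 6 lower, and 12 had an unadjusted p under 0.05 by edgeR, beside 30.7% of all tested genes. Golm1, a Golgi membrane protein used like Afp as a blood marker of liver cancer, was at 102.4 CPM in both treated libraries and at 196.6 and 194.1 CPM in controls (edgeR, adjusted p = 0.0319). Lgr5, the R-spondin receptor of stem and progenitor cells, was at 68.9 and 60.3 against 125.1 and 123.0 CPM (edgeR, adjusted p = 0.0378). Tspan8, a tetraspanin of epithelial tumors, was at 100.7 and 114.2 against 196.2 and 200.3 CPM (edgeR, adjusted p = 0.0405). The log2 fold changes of Golm1, Lgr5 and Tspan8 were -0.93, -0.94 and -0.88. Without a control library their adjusted p lay between 0.172 and 0.270, and with library size only that of Lgr5 was 0.0584 (edgeR).

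The list of relatives of the 10 genes held 14, of which 11 were tested, 1 fell and the median log2 fold change was 0.15. DESeq2 called 4 higher and 1 lower. Notch4, a Notch receptor, was at 2.81 and 2.59 CPM in treated libraries and 8.02 and 7.42 CPM in controls (log2 fold change -1.51, edgeR adjusted p = 0.0391). Its adjusted p was 0.240 and 0.173 without control replicate 1 and 2. Relatives named here after their values were seen follow. Dlk2 had a log2 fold change of 1.05 (edgeR, adjusted p = 0.0828) and an adjusted p of 0.0130 by DESeq2. Gpc1 was at 247.9 and 378.3 against 190.6 and 199.5 CPM (edgeR, adjusted p = 0.145; DESeq2, 0.0495), and Gpc4 had a log2 fold change of 0.080. Notch3 was at 1.83 and 3.90 against 0.316 and 0.358 CPM, with a log2 fold change of 3.07 (edgeR, adjusted p = 0.0525; DESeq2, 1.0e-04). Cdkn1a, which encodes the cell cycle inhibitor p21, was at 438.3 and 1750 CPM against 360.5 and 364.0 CPM, with the treated libraries far apart (edgeR, adjusted p = 0.198; DESeq2, 0.00793).

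**Figure D4:**
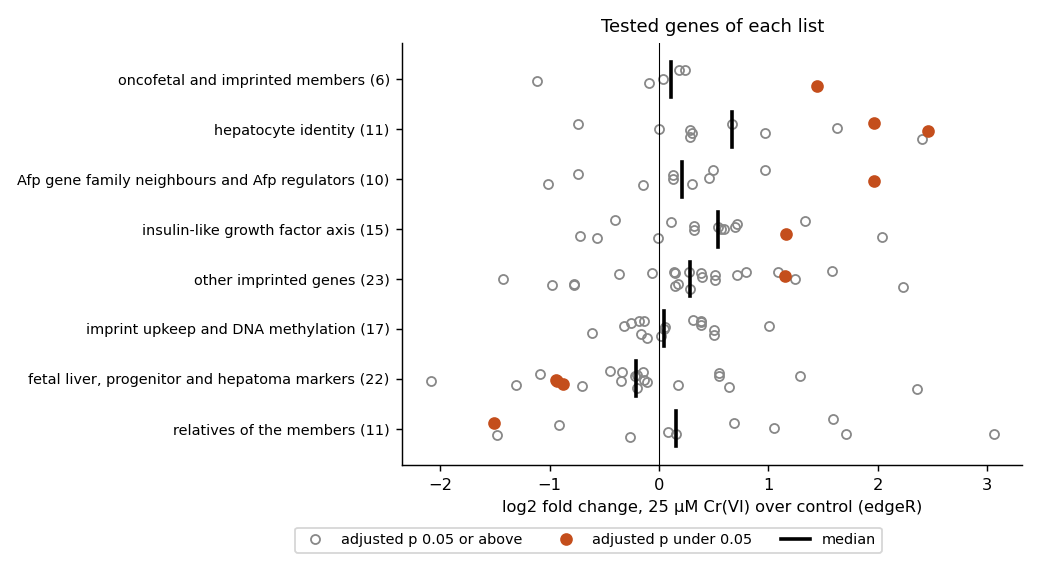
Log2 fold change of 25 µM Cr(VI) over control (horizontal axis, edgeR) for each tested gene of the 10 and of 7 lists of related genes, with the number tested in brackets. Filled orange points have an adjusted p under 0.05, open grey points do not, and black bars are medians, 0.67 for hepatocyte identity genes and -0.21 for fetal liver, progenitor and hepatoma markers.

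FAIRE peaks (open in treated cells) were counted by a centre in the gene or within 10000 bp of its ends. In the 25 µM list of 2945 peaks, 3 of 10 genes, Afp, Igf2bp1 and Igf2bp3, had one, beside 9.23% of 23281 annotated genes. How the count stood beside the share of all genes depended on the distance. Within 1000 bp it was 2 of 10 beside 6.4%, and within 100000 bp it was 3 of 10 beside 32.2%, near the background. In the 0.5 µM list of 860 peaks, 0 of 10 had one, beside 2.94% of genes. Both lists as analysed here hold slightly fewer peaks than the totals in the study's text. The peaks that the study annotated by genomic element add up to the size of these lists. Peaks outside these lists were not analysed here. The median length of the 10 genes was 24.5 kb, beside 15.9 kb for all annotated genes, and the part of gene length in these counts was not tested. Each list rests on 1 treated and 1 control library, so no test was made. The score is 10 times the negative log10 of the peak caller's p-value, and all 3 peaks had scores under 100, with a list median of 57.2.

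The 3 peaks of the 25 µM list are printed below in full on the plus strand of GRCm38, since they are the only ones of that list in or within 10000 bp of these genes. Capitals mark a match to TGANTCA, the AP-1 consensus, searched on both strands.

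Afp, chr5:90506561-90506739: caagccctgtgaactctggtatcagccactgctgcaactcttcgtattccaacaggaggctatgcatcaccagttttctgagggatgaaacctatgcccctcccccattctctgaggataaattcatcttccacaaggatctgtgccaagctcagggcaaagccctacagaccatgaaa

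Igf2bp3, chr6:49096522-49096734: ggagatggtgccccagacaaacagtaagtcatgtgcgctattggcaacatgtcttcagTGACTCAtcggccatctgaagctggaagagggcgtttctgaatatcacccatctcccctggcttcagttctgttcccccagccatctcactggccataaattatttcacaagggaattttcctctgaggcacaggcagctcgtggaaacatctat

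Igf2bp1, chr11:95954387-95954458: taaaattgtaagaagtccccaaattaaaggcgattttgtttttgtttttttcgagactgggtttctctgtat

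The Afp peak was 179 bp wide with a score of 52.4 and lay wholly inside exon 12 of 15, a 224 bp exon at chr5:90506521-90506744. It was 15.9 kb from the start of Afp and 2257 bp from the end of the gene. Of the 2945 peaks, 153 or 5.2% lay wholly within 1 exon. The peak held no match to TGANTCA, which 24.7% of 757 peaks of similar width in the list held.

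The Igf2bp3 peak had the highest score of the 3, 77.4, and was 213 bp wide. It lay in an intron, past exon 10 of 15, 118.8 kb from the start of Igf2bp3 and also within Malsu1 on the other strand. It held 1 match to TGANTCA, as did 27.0% of 489 peaks of similar width. The Igf2bp1 peak was 72 bp wide with a score of 59.1 and lay in no gene, 2741 bp past the 3′ end of Igf2bp1. Its GC content was 31.9%, it held no match, and 6.1% of 508 peaks of similar width held one.

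No peak of either list lay in or within 10000 bp of Gpc3, the gene whose RNA rose. From its start, the nearest peak centre was 1956 kb away in the 25 µM list and 4009 kb in the 0.5 µM list. At the imprinted clusters the nearest 25 µM peak was 229 kb from the start of Igf2, 140.6 kb from H19, 113 kb from Cdkn1c, 763 kb from Dlk1, 674 kb from Meg3 and 783 kb from Igf2r. In the 0.5 µM list these distances were 1203 to 2328 kb, except for Igf2r.

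**Figure D5:**
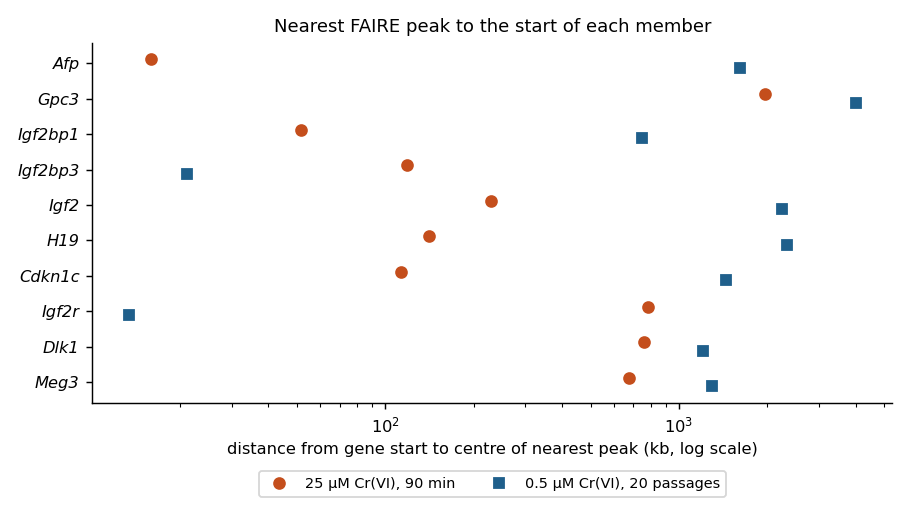
Distance from the start of each of the 10 genes to the centre of the nearest FAIRE peak (kb, log scale), orange circles for the 25 µM list and blue squares for the 0.5 µM list. Afp at 15.9 kb was nearest in the 25 µM list, and Igf2r at 13.4 kb and Igf2bp3 at 21.2 kb in the 0.5 µM list.

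The long-term list came nearest to Igf2r and Igf2bp3, in both cases upstream of the start and beyond 10000 bp. The Igf2r peak, chr17:12782778-12783369, was 592 bp wide with a score of 54.1, 13.4 kb from the start of Igf2r and within an intron of Airn. The Igf2bp3 peak, chr6:49236343-49236918, was 576 bp wide with a score of 54.4, 21.2 kb from the start and in no gene. Each held 1 match to TGANTCA, as did 29.7% of 464 and 28.6% of 475 peaks of similar width in the list. The 101 bases around each match are shown with the match in capitals (GRCm38, plus strand).

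Igf2r upstream, chr17:12782961-12783061: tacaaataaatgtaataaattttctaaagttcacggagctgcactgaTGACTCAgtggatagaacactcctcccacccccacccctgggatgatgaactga

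Igf2bp3 upstream, chr6:49236362-49236462: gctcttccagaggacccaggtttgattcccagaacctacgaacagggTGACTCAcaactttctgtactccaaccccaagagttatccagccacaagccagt

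The RNA analysed here was measured after 25 µM Cr(VI) only. Set beside it, the 3 genes with a 25 µM peak had log2 fold changes of 0.034 for Afp, -0.092 for Igf2bp1 and -1.11 for Igf2bp3. None was called in the main edgeR fit, but Igf2bp3 was called by DESeq2 (adjusted p = 9.5e-04) and with a replicate block. The gene called in the main edgeR fit, Gpc3, had no peak within 1956 kb of its start.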

How the data were processed

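RNA-seq and FAIRE-seq libraries of Hepa-1 cells were analysed from the authors' processed values. The authors deposited raw counts per Entrez gene after alignment of poly-A RNA reads to mm10 with TopHat. The counting tool, annotation and use of strand are not given in the sources used here. The deposited peak score, from MACS after alignment with BWA, is −log10 of a p-value times 10, with 1 treated library set against 1 control.

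Of 23403 genes, 13619 passed edgeR's filterByExpr; the quasi-likelihood test was used (edgeR, two-sided, TMM, no block, Benjamini-Hochberg threshold 0.05). Library totals were 32319676 to 37696116 counts per library. Floors of 3 counts cover counting error only. Alternatives were DESeq2, a replicate block, library size only, upper-quartile scaling, no filter, and each library left out. Peaks were placed on the RefSeq annotation of GRCm38.p6 (mm10) by their centre, within 10000 bp of a gene. Alternatives were 1000 and 100000 bp, any base of the peak, and a score of at least 100. Peak depth is unknown. Like-width peaks are within 25% of a peak's width. Simulated counts, in which 200 genes were changed, served to test the code of the fit. They had the same spread in both groups. They therefore do not test the fit under the unequal spread of these libraries.

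The genes and gene lists were chosen with earlier results of these data known. Named are all 10 genes, the genes of each list called by edgeR (at most 6 a list), Alb, Afm, Gc and Igf2bp2, and the peaks at or nearest to the genes. Igf1r, Airn, Dnmt1, Dnmt3b, Dlk2, Gpc1, Gpc4, Notch3, Cdkn1a and single cell type markers were added after their values were seen. So were Foxa1, Glul, Axin2 and Sox9. Tools were edgeR 4.0.16 and DESeq2 1.42.0 in R 4.3.3, and pandas 2.3.3, pysam 0.24.0 and matplotlib 3.10.9 in Python 3.11.15.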

Additional observations from a re-analysis of the deposited data

How the results depend on the processing

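The number of calls differed most with the library left out. Of 13619 genes tested, edgeR called 631, 456 with library size only, 627 with upper-quartile scaling and 777 of 18864 with no filter. DESeq2 called 2073, 1057 higher and 1016 lower, against 243 and 388. Leaving out 1 library gave 287 to 10995 calls: 294 without control replicate 1, 287 without control replicate 2, 10995 without treated replicate 1 and 9333 without treated replicate 2, where the spread came from the 2 controls alone. Of the 10 genes, 1 was called, 2 by DESeq2 and 0 to 6 with 1 library left out, the 6 including H19. For the lists, DESeq2 called 6 hepatocyte identity genes against 2, 2 of the Afp list against 1, 3 of the growth factor axis against 1, 6 other imprinted genes against 1, 2 upkeep genes against 0, 9 fetal markers against 3 and 5 relatives against 1. Leaving out 1 library gave, in the same order, 1 to 8, 0 to 9, 0 to 12, 0 to 19, 0 to 17, 0 to 20 and 0 to 11. With library size only, 0 genes of the growth factor axis, 2 other imprinted and 1 upkeep gene were called. With no filter, 3 other imprinted genes, 5 fetal markers and 2 relatives were called. Afp reversed with library size only (-0.094) and ranged from -0.21 to 0.25 with 1 library left out, and Igf2bp1 from -0.40 to 0.17. At a minimum score of 100, 0 of the 10 genes had a 25 µM peak, beside 0.103% of all genes. Within 100000 bp, 3 had a 25 µM peak, beside 32.2%, and 2 had a 0.5 µM peak, beside 10.7%. Within 1000 bp, 2 had a 25 µM peak, beside 6.4%. The cause of these changes was not tested.

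With a replicate block, 2969 genes were called, 2 of them among the 10 (Gpc3 and Igf2bp3), with 5, 3, 6, 10, 2, 10 and 7 in the lists in the order above. The labels do not say what a replicate number marks. The deviations of same-numbered libraries from their group means correlated at r = 0.0909 across 13619 genes, which are not independent replicates, so the pairing rests on a number alone.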
